A study of Drosophila melanogaster with 14 samples.

Results

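The 6 genes nos, vas, zpg, ovo, bam and bgcn govern whether fly germ cells stay stem cells or start to differentiate, and the data show when in S phase the DNA around each of them was copied. They are a named set, picked for their known roles at a time when earlier results of these data were known, with no threshold on their values, out of 18277 annotated genes of the chromosome arms and Y. Each was followed in the 10 kb bin that holds its start, 6 of 13757 bins, and in the windows centred within the gene, 48 of 137552 windows.

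In the fly testis, germline stem cells sit around a cluster of somatic hub cells, together with somatic cyst stem cells. Hub-derived Unpaired activates JAK-STAT signalling in both stem cell types, and BMP ligands from the somatic cells hold down transcription of bam in the germline stem cells. As a daughter cell leaves the hub, Bam protein accumulates, acts together with Bgcn, and ends the mitotic divisions that precede the spermatocyte stage.

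The start sites of nos, zpg and bam carry letters that factors of the same pathway recognise, and they are shown for that reason. OVO protein, the product of ovo, binds the core TAACNGT, and Mad and Medea, the DNA-binding effectors of BMP signalling, bind GNCGNC, then any 5 bases, then GTCT. Genes are those of Ensembl release 115. Both strands were searched from 250 bases before to 50 bases after each member's start, and the motifs did not overlap each other. Each sequence is 25 bases of RefSeq Release 6 on the gene's own strand, 5′ to 3′, with the match in capitals, which reads on the opposite strand in all 3. All 3 stretches overlap a 5′ UTR exon of their gene. The matches begin 4 bases before the start of nos (stretch 3R:19157225-19157249), 16 bases after that of zpg (3L:6606001-6606025) and 29 bases after that of bam (3R:25245061-25245085).
nos, OVO core: taagcaagaACCGTTAgttggcgcg
zpg, OVO core: tatacatcaACCGTTAtgatgccgc
bam, Mad and Medea element: ttcgcAGACAGCGTGGCGTCaggca

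Of 13968 coding promoters of that length, 13.3% held the OVO core and 0.415% held the Mad and Medea element. The other member windows held neither set of letters. The 3 kb windows of the timing data are far longer than such a site, so no timing value belongs to the matches themselves.

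The study used Repli-seq, in which newly made DNA is labelled with the thymidine analogue BrdU, nuclei are sorted by DNA content into fractions of S phase, and the labelled DNA of each fraction is captured and sequenced. Testis tumours were grown by forcing expression of Unpaired (Upd), so that stem-cell-like cells accumulate. The GSC-like nuclei, named for germline stem cells, came from flies with y[1], w[1118] and P{hs70FLP} in which the germline driver P{w[+mC]=GAL4::VP16-nanos.UTR} stood over UAS-Upd. The CySC-like nuclei, named for cyst stem cells, came from flies with w[1118] in which the cyst lineage driver traffic Jam-GAL4 stood over UAS-Upd. Both groups carried, over a + chromosome, the histone reporter UAS-FRT-H3-GFP-FRT-H3-mKO, and no tumour-free testis is among the groups. Each preparation pooled 100 to 200 pairs of dissected testes, exposed to 100 mM BrdU for 15 min. The labels give no age. The 4 sorted fractions are called E (early), EM (between early and middle), ML (between middle and late) and L (late). GSC-like had 2 biological replicates with all 4 fractions, and CySC-like had replicate 1 with E and L and replicate 2 with all 4, making 14 libraries. The assay reads DNA, so the labelled cell types could not be checked against the expression of their markers. In pooled sorted nuclei, an admixture of other cells and a different timing in every nucleus cannot be told apart.

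Library depth differed between the replicates and set the counting error of each value. GSC-like replicate 1 had 49.1 to 86.2 M reads per library, whereas the paired-end GSC-like replicate 2 had 0.516 to 7.05 M. The CySC-like libraries had 74.1 to 144 M reads. In the ML library of GSC-like replicate 2 the 6 bins held an estimated 6 to 22.7 reads each, which alone gives a counting error of 0.30 to 0.59 on the log2 scale. In its L library they held 49.3 to 87.3 reads, an error of 0.15 to 0.21. Counting errors leave out variation between preparations. Over all bins, log2(E/L), the early over the late signal, had an SD of 0.74 and 1.32 in the GSC-like replicates, against 1.08 and 0.72 in the CySC-like ones.

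The members lie on 5 chromosome arms and in unlike surroundings (coordinates of Release 6, dm6). The Nanos translational repressor is encoded by nos (FBgn0002962), at 3R 19157238 to 19160202 on the plus strand. Vasa, a DEAD-box RNA helicase of germ granules, is encoded by vas (FBgn0283442), at 2L 15061656 to 15074311 on the plus strand. The germline gap junction protein Innexin 4 is encoded by zpg (FBgn0024177), at 3L 6604366 to 6606032 on the minus strand. The germline zinc finger transcription factor ovo (FBgn0003028) spans X 5048273 to 5070929 on the plus strand. The differentiation factor bam (FBgn0000158) lies at 3R 25243039 to 25245109, and its partner bgcn (FBgn0004581) at 2R 23853270 to 23858921, both on the minus strand. All but ovo share their start bin with other coding genes, so a bin value is not a property of the member alone. The start bin of nos also holds the starts of CG11779 and CG5835, that of vas holds TfIIS and solo, and that of zpg holds Rexo5, ndl and axed. The bam bin holds CG11854, Nup37, RpS27, to and Nup358, and the bgcn bin holds eIF6, gbb, Pym and ytr. The GC content of the bins was 44.4% for nos, 41.1% for vas, 45.7% for zpg, 39.5% for ovo, 43.4% for bam and 50.2% for bgcn. The median bin on the arms had 42.5%, and bgcn stood at the 98.3rd and ovo at the 16.4th percentile.

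Across the members, bgcn had the highest ratio of early to late signal in both cell types, and no member differed in timing between GSC-like and CySC-like nuclei by the test over all bins. Timing was measured as log2(E/L), the signal of the early over that of the late fraction, after each library was scaled to the same mean and 0.1 RPKM (reads per kb per M reads) was added. A positive value means more signal in E. It is also given as a percentile among 13745 bins of the same replicate, where higher is earlier. Scaling a whole library moves a percentile only through the added 0.1 RPKM. With limma and Benjamini-Hochberg adjustment, 0 of 6 members differed between the cell types, beside 14 of all 13745 bins (0.102%). At an unadjusted p under 0.05 the fit gave 1 of 6 members, zpg, beside 9.68% of all bins. Bin by bin, the mean log2(E/L) was higher in GSC-like than in CySC-like nuclei at all 6 members, by a median of 0.78, although at nos the sign turned under several settings given with its values. The same sign held in 63.8% of all bins and in 74.9% of coding genes by their start bin, whose median difference was 0.39. Leaving out GSC-like replicate 2 gave the members a median of -0.09, beside -0.06 for coding genes by their start bin and 0.01 for all bins.

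**Figure D1:**
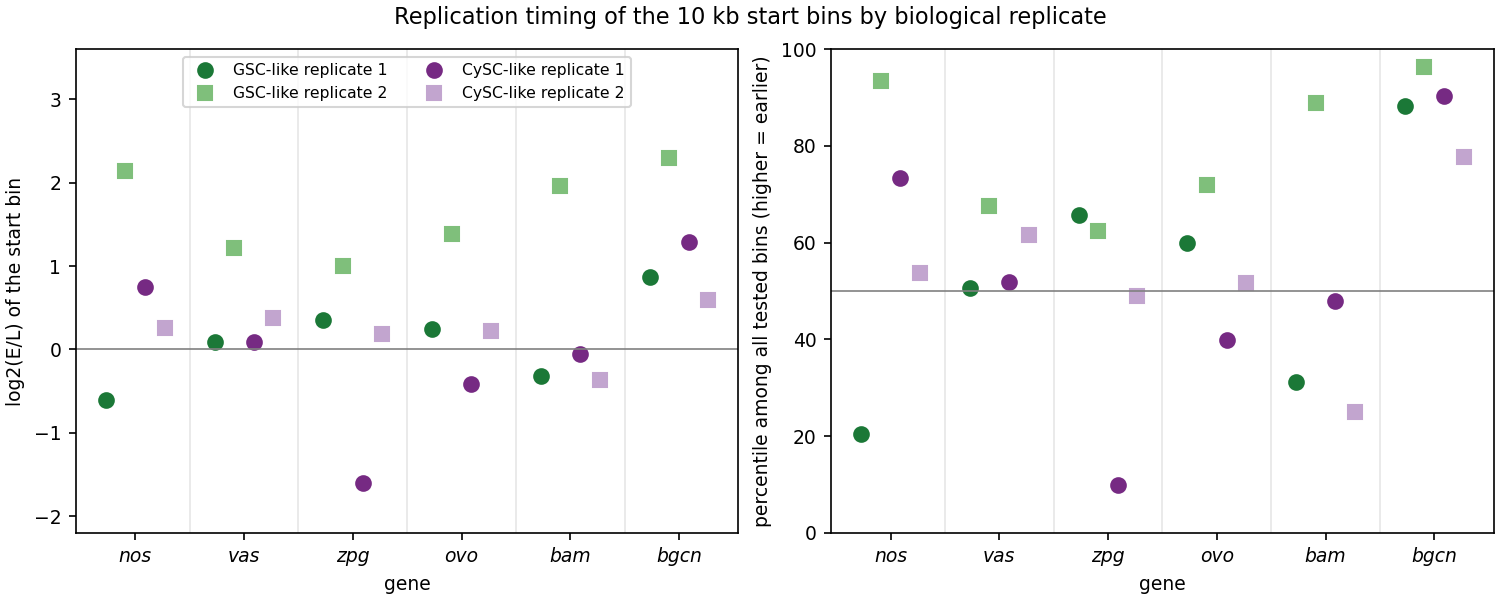
Early over late signal of the start bin of each member, as log2(E/L) on the left and as the percentile among 13745 bins on the right (higher is earlier), with 1 point for each biological replicate, circles for replicate 1 and squares for replicate 2, GSC-like in green and CySC-like in purple. The bgcn points lie between the 77.8th and 96.3rd percentile in all 4 replicates, whereas the GSC-like points of nos and bam are far apart.

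Among the 6 members, nos had the widest spread between the GSC-like replicates. Its rescaled signal in E was 4.33 and 9.94 RPKM in the 2 GSC-like replicates, in order, against 8.03 and 6.16 RPKM in the 2 CySC-like replicates. In L it was 6.67 and 2.18 RPKM in GSC-like, against 4.73 and 5.13 RPKM in CySC-like. The GSC-like replicates thus lay outside the CySC-like values on opposite sides, late in the first and early in the second. This gave a log2(E/L) of -0.61 and 2.14 for GSC-like, the 20.4th and 93.4th percentile, against 0.75 and 0.26 in CySC-like, the 73.4th and 53.7th. The difference between the cell types, GSC-like minus CySC-like, was 0.26 ± 0.67 (limma SE, n = 2 each, adjusted p = 0.941), with a 95% interval of -1.10 to 1.62. That SE, like those below, draws on both cell types and all tested bins or genes. The GSC-like replicates alone had an SD of 1.94. The sign of the difference turned, to between -0.27 and -0.04, with 50 kb bins, with scaling by the median bin or on autosomal bins, with quantile normalization and with voom. Without GSC-like replicate 2 it was -1.12, and no direction can be given for nos.

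The vas bin was near the middle of the genome-wide order. Its E signal was 6.25 and 7.40 RPKM in GSC-like, against 7.39 and 7.89 RPKM in CySC-like. In L it had 5.90 and 3.12 RPKM in GSC-like, against 6.94 and 6.07 RPKM in CySC-like. The early signals all lay between 6.25 and 7.89 RPKM, and the low late value belonged to the shallow GSC-like replicate 2. In GSC-like its log2(E/L) was 0.08 and 1.22, the 50.6th and 67.6th percentile, against 0.09 and 0.37 in CySC-like, the 52.0th and 61.5th. The difference was 0.42 ± 0.59 (SE, n = 2 each, adjusted p = 0.869), and GSC-like replicate 1 had the lowest value of the 4. It was -0.15 when GSC-like replicate 2 was dropped.

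At zpg, whose gap junctions link germ cells to the soma around them, 1 replicate stood apart in the other cell type. The E signal was 7.71 and 6.03 RPKM in GSC-like, against 3.17 and 6.80 RPKM in CySC-like. The L signal was 6.02 and 2.95 RPKM in GSC-like, against 9.82 and 5.97 RPKM in CySC-like. CySC-like replicate 1 was thus both the lowest in E and the highest in L. The log2(E/L) of 0.35 and 1.00 in GSC-like, the 65.7th and 62.3rd percentile, lay above -1.60 and 0.18 in CySC-like, the 9.86th and 48.9th. The difference was 1.39 ± 0.63 (SE, n = 2 each), with an unadjusted p of 0.033 and an adjusted p of 0.466 by limma, so it did not pass the test over all bins. Without CySC-like replicate 1 the difference was 0.49. It was positive under all 17 alternatives, but these are not separate evidence of direction. The filter on low bins, the variance trend and the replicate blocks cannot change the estimate in this design.

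The ovo bin gave the same order of groups with a smaller difference. Its E signal was 4.05 and 5.93 RPKM in GSC-like, against 3.61 and 4.52 RPKM in CySC-like. In L it had 3.40 and 2.21 RPKM in GSC-like, against 4.84 and 3.84 RPKM in CySC-like. In both fractions the cell types did not interleave apart from GSC-like replicate 1 in E, which lay between the CySC-like values. In GSC-like the log2(E/L) of ovo was 0.25 and 1.38, the 59.8th and 72.0th percentile, against -0.41 and 0.23 in CySC-like, the 39.8th and 51.7th. The difference was 0.91 ± 0.64 (SE, n = 2 each, adjusted p = 0.688) and 0.34 without GSC-like replicate 2. At zpg and ovo both GSC-like replicates lay above both CySC-like replicates, as in 25.7% of all bins. The margin at ovo was 0.25 against 0.23, and over the gene body GSC-like replicate 1 had -0.57, below both CySC-like replicates at -0.42 and 0.10.

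The X chromosome of a male fly is present in a single copy, and ovo is the member on X. The median X arm bin had 0.385 to 0.794 of the signal of the median autosomal arm bin over the 14 libraries, and ovo had the lowest level of the members in 10 of them. Relative to the median X arm bin, ovo ranged between 0.60 and 1.73.

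The differentiation factor bam followed the GSC-like pattern of nos. Its E signal was 5.64 and 8.42 RPKM in GSC-like, against 6.09 and 5.52 RPKM in CySC-like. The L signal was 7.07 and 2.08 RPKM in GSC-like, against 6.36 and 7.12 RPKM in CySC-like. GSC-like replicate 1 lay within the CySC-like values in both fractions, and GSC-like replicate 2 was higher than all others in E and lower in L. In GSC-like the log2(E/L) of bam was -0.32 and 1.96, the 31.1st and 88.9th percentile, against -0.06 and -0.36 in CySC-like, the 48.0th and 25.0th. The difference was 1.03 ± 0.64 (SE, n = 2 each, adjusted p = 0.621). It was 2.18 without GSC-like replicate 1, where it passed the test (adjusted p = 0.045), and -0.11 without GSC-like replicate 2. Adjusted p over all alternatives ranged between 0.045 and 1.00.

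Its partner bgcn, related to DExH-box RNA helicases, had more signal in E than in L in every replicate. The E signal was 6.80 and 9.05 RPKM in GSC-like, against 10.0 and 6.66 RPKM in CySC-like. The L signal was 3.68 and 1.76 RPKM in GSC-like, against 4.06 and 4.38 RPKM in CySC-like. The highest E and the lowest L signal thus came from different cell types. In GSC-like the log2(E/L) of bgcn was 0.87 and 2.30, the 88.3rd and 96.3rd percentile, against 1.28 and 0.59 in CySC-like, the 90.4th and 77.8th. The difference was 0.64 ± 0.62 (SE, n = 2 each, adjusted p = 0.794) and -0.07 without GSC-like replicate 2.

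Within GSC-like nuclei, E exceeded L past the threshold at bgcn alone, 1 of 6 members, beside 17.9% of all bins and 32.5% of coding genes by their start bin. The bgcn mean was 1.58 ± 1.01 (SD, n = 2), with an adjusted p of 0.013 by limma. The call was lost under 6 alternatives. Among them were scaling by the median bin (1.17, adjusted p = 0.064 by limma) and voom (1.31, adjusted p = 0.060). They also included leaving out GSC-like replicate 2 (0.87) or either CySC-like replicate. Higher signal in L past the threshold was found at 0 members, beside 12.4% of all bins. In CySC-like nuclei 0 members passed by limma in either direction, beside 0.989% of bins for E and 10.2% for L. Only bgcn had an unadjusted p under 0.05 there, with 0.94 ± 0.49 (SD, n = 2), unadjusted p = 0.040 and adjusted p = 0.146. Of all 13745 bins, 4195 had an unadjusted p under 0.05 in CySC-like nuclei.

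Ordered by mean log2(E/L) in GSC-like nuclei, bgcn at 1.58 was followed by bam at 0.82, ovo at 0.81, nos at 0.76, zpg at 0.68 and vas at 0.65. In CySC-like nuclei bgcn at 0.94 was followed by nos at 0.50, vas at 0.23, ovo at -0.09, bam at -0.21 and zpg at -0.71. In both orders every neighbouring pair overlapped in its replicate values, and bgcn had the highest log2(E/L) of the members in each of the 4 replicates. That first place is one of E against L. With all 4 fractions taken as labelled it did not hold in every replicate, as the fraction shares show.

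The member differences were also set against the median of all bins, since that median moved with the scaling. It was 0.24 as scaled here and -0.13 with each library scaled by its median bin. Taken over 5 ways of scaling and relative to the median of all bins, the difference was 1.14 to 1.17 for zpg, 0.67 to 0.80 for bam, 0.59 to 0.67 for ovo, 0.29 to 0.41 for bgcn, 0.08 to 0.18 for vas and -0.24 to 0.02 for nos. Dividing a whole library by a factor shifts all bins alike, apart from the added 0.1 RPKM. Relative to that median, only quantile normalization could therefore move these values, and it kept the order of the members. The choice of replicates moved single genes by more than 1 on the log2 scale.

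**Figure D2:**
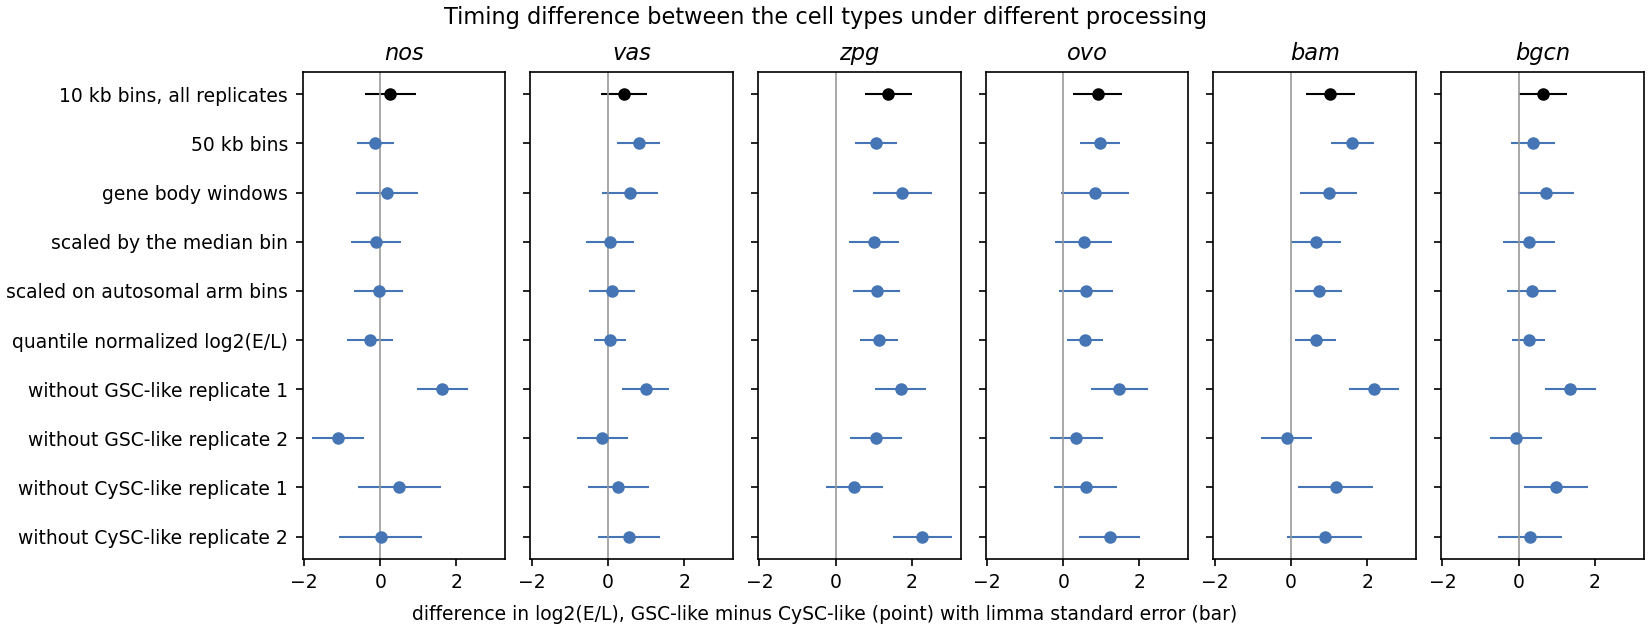
GSC-like minus CySC-like log2(E/L) of each member's start bin as reported (black) and under 9 alternatives (blue), as points with limma's standard error as bars. Values at zpg and ovo lie right of 0 throughout, nos falls left of 0 with 50 kb bins, under 3 scalings and without GSC-like replicate 2, and vas, bam and bgcn fall left of 0 only in the row without that replicate.

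Windows over the gene body kept the signs and the order of the member differences. There the difference was 1.76 ± 0.78 at zpg, 1.00 ± 0.75 at bam, 0.84 ± 0.89 at ovo, 0.72 ± 0.74 at bgcn, 0.58 ± 0.73 at vas and 0.18 ± 0.81 at nos (SE, n = 2 each). Adjusted p over 18277 genes was 0.640 or higher for each. The median difference over all genes was 0.43, above the value at nos. The separation of replicates was not the same as in the bins, since at ovo the cell types overlapped. At bam both GSC-like replicates, at -0.0021 and 1.77, lay above both CySC-like ones, at -0.14 and -0.09. The bodies of all 6 members overlap other annotated genes, CG11779 and Nsun5 at nos, vig and solo at vas, Rexo5 at zpg, a long noncoding RNA at ovo, CG11854 at bam and Pym at bgcn.

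The intermediate fractions were available in 3 replicates, and each bin's signal was expressed as its share of the 4 fractions. From E through EM and ML to L, nos had shares of 24.0%, 18.6%, 20.4% and 37.0% in GSC-like replicate 1, so that it was highest in the late fraction. In GSC-like replicate 2 they were 59.4%, 12.6%, 15.0% and 13.0% in the same order, with the early fraction highest. In CySC-like replicate 2 they were 24.1%, 19.0%, 36.8% and 20.1%, with ML highest. The 3 replicates therefore put the peak of nos in 3 different fractions. For bgcn the shares from E to L were 37.7%, 21.0%, 20.9% and 20.4% in GSC-like replicate 1, and 52.4%, 16.0%, 21.4% and 10.2% in GSC-like replicate 2. Those of CySC-like replicate 2 were 25.3%, 21.5%, 36.5% and 16.7%. Both GSC-like replicates thus had their highest share of bgcn in E and their lowest in L.

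With the fractions numbered 1 to 4 from E to L, each bin also had a mean position, given here as a percentile of all bins in which lower is earlier. In GSC-like replicate 1 bgcn was the earliest member by this measure, at 12.7, and nos the latest, at 83.4. In GSC-like replicate 2 nos, at 8.00, was earlier than bgcn, at 13.2, and zpg was the latest, at 40.5. In CySC-like replicate 2 ovo, at 28.4, and vas, at 42.1, were earlier than bgcn, at 42.8, and bam was the latest, at 79.7. With EM and ML included as labelled, bgcn was therefore the earliest member in 1 of 3 replicates. In GSC-like replicate 2 the mean positions of nos and bgcn were close, at 1.82 and 1.89. The ML library there held only an estimated 12.7 reads at nos and 18.7 at bgcn.

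For bam the shares from E to L were 27.2%, 19.2%, 19.5% and 34.1% in GSC-like replicate 1, and 48.8%, 18.8%, 20.2% and 12.1% in GSC-like replicate 2. CySC-like replicate 2 had 22.1% in E, 26.4% in ML and 28.5% in L, with EM between E and ML, so that its share grew with each later fraction. The ovo bin had 25.6%, 17.8%, 35.1% and 21.5% in GSC-like replicate 1 and 54.4%, 14.4%, 10.9% and 20.3% in GSC-like replicate 2, where its ML library held only an estimated 6 reads. Its CySC-like replicate 2 shares were 28.6%, 27.3%, 19.7% and 24.4%, with no fraction far from an equal share. At zpg, GSC-like replicates 1 and 2 had 33.7% and 36.3% in E and 26.3% and 17.8% in L, and CySC-like replicate 2 had 25.8% in E and 22.6% in L. At vas the shares lay between 17.1% and 43.8% in the 2 GSC-like replicates and between 19.7% and 30.5% in CySC-like replicate 2.

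In GSC-like replicate 2, E was the highest fraction for all 6 members, with shares of 36.3% to 59.4%, as it was for 36.0% of all bins. In GSC-like replicate 1 the highest fraction was E for zpg and bgcn, ML for vas and ovo, and L for nos and bam. In CySC-like replicate 2 it was ML for nos, vas, zpg and bgcn, E for ovo and L for bam. ML was the highest fraction for 36.7% of all bins there. In that replicate ML ranked bins much as E did, with a Spearman rho over 13745 bins of 0.80, against 0.28 for EM with E. In the GSC-like replicates E had a rho of 0.04 and -0.39 with ML, and of 0.45 and 0.43 with EM. Whether the fractions of CySC-like replicate 2 keep their labelled order was not tested, so its ML peaks and mean positions are given as labelled.

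**Figure D3:**
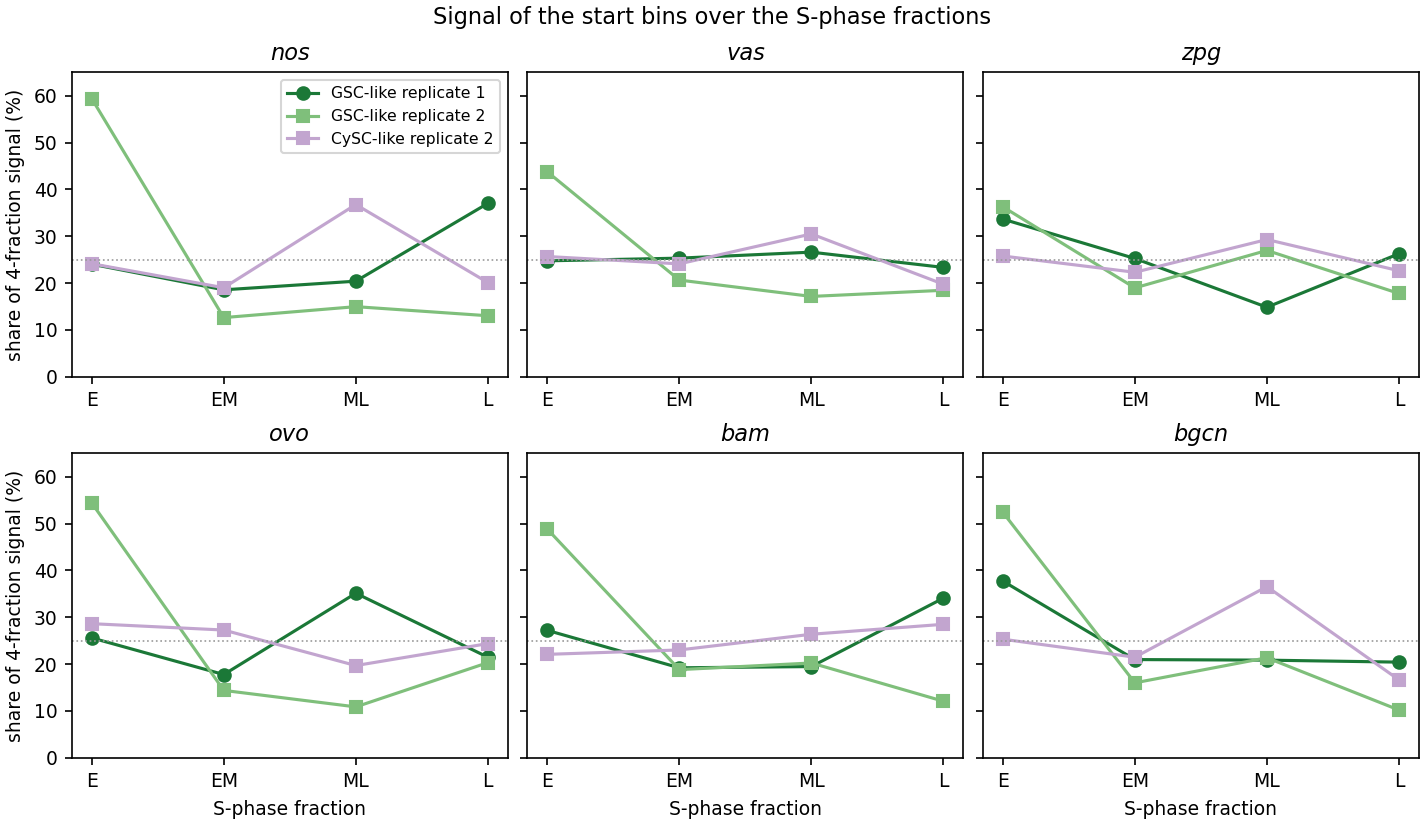
Share of each start bin's rescaled signal in the S-phase fractions E, EM, ML and L, in % of the 4-fraction sum, for GSC-like replicates 1 and 2 (green) and CySC-like replicate 2 (purple), with a dotted line at equal shares. The nos bin peaks at 37.0% in L, 59.4% in E and 36.8% in ML in these replicates, and bgcn is highest in E in both GSC-like replicates.

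Neighbouring bins showed how local the members' values were. In the 11 bins within 50 kb on either side, bam was the latest bin in GSC-like replicate 1, at the 31.1st percentile beside a median of 76.2. In GSC-like replicate 2 it was the second earliest. In CySC-like replicate 1 bam was the earliest of its 11 bins, at the 48.0th percentile beside a median of 24.1, and in CySC-like replicate 2 it was the 10th. The bam bin thus dipped below its surroundings in 1 GSC-like replicate, and the neighbourhood as a whole was earlier in both GSC-like replicates, with medians at the 76.2nd and 83.3rd percentile against the 24.1st and 37.0th in CySC-like. In 50 kb bins the bam difference was 1.61 (adjusted p = 0.430), again without passing the test.

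The nos bin also lay below its surroundings in GSC-like replicate 1, as the 10th of 11 bins, beside a neighbourhood median at the 44.5th percentile. In GSC-like replicate 2 it was the 5th of 11, beside a median at the 89.3rd. In CySC-like replicates 1 and 2 the neighbourhood medians were at the 70.6th and 63.8th percentile, with nos the 4th and 8th of 11 bins. Around zpg the neighbourhood medians were at the 65.7th and 58.3rd percentile in GSC-like, against the 13.3rd and 32.9th in CySC-like, so the direction seen at the zpg bin extended to its surroundings. The order was the same around ovo, with 62.2 and 72.0 against 41.4 and 49.6. Around vas it was too, with 61.4 and 73.9 against 42.9 and 60.5. How often it holds around other genes was not counted. Around bgcn the medians were at the 80.5th and 93.8th percentile in GSC-like, against the 87.8th and 82.1st in CySC-like, an early neighbourhood in each. Adjacent bins of the whole genome differed in log2(E/L) by a median of 0.36 and 0.30 in the GSC-like replicates, against 0.25 and 0.19 in the CySC-like ones.

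**Figure D4:**
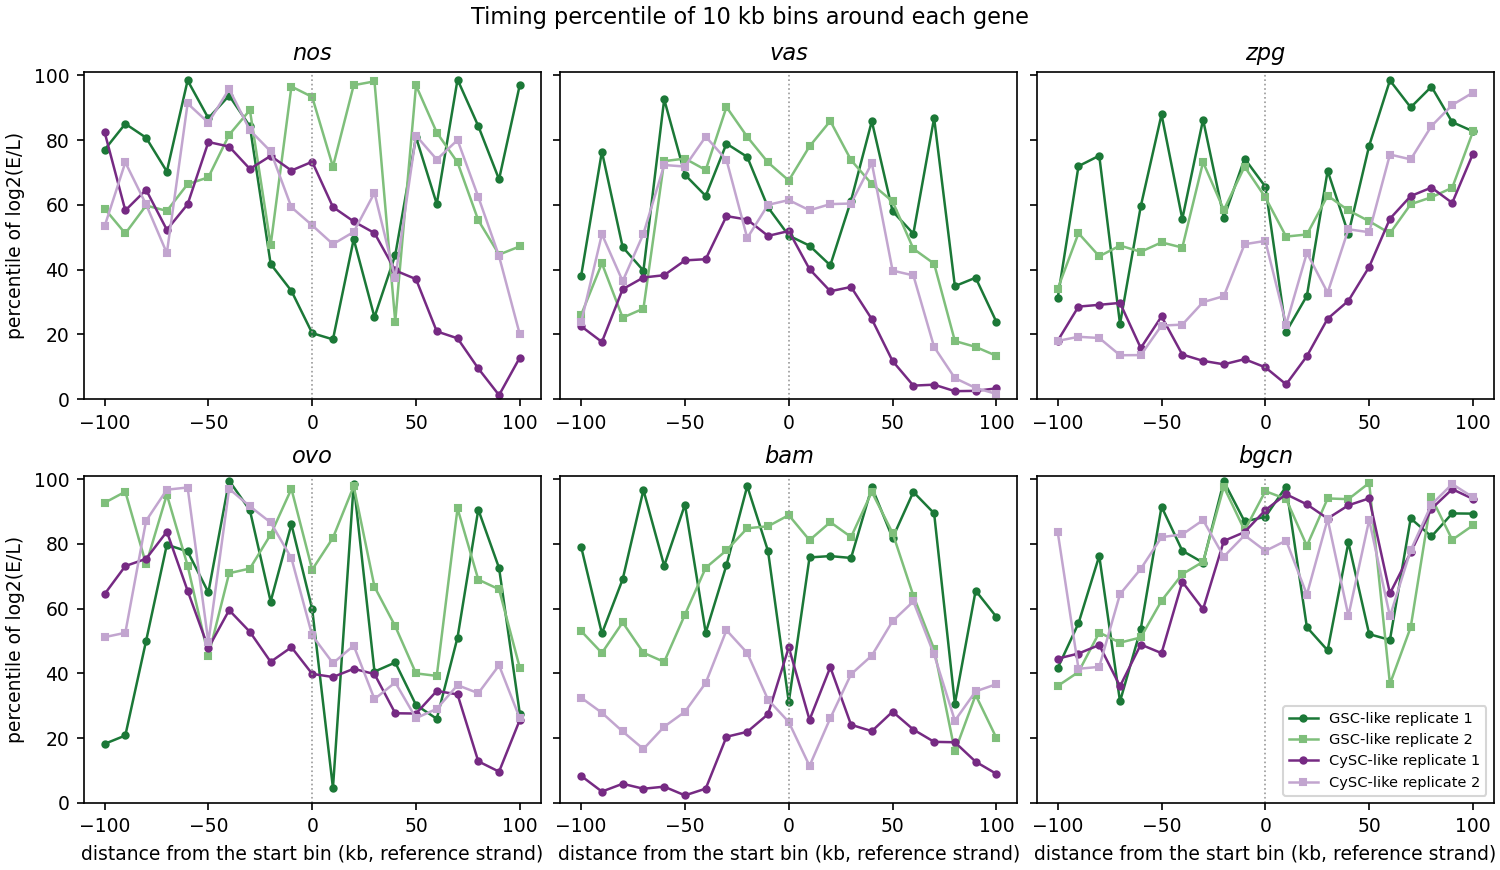
Percentile of log2(E/L) (higher is earlier) of the 10 kb bins up to 100 kb on either side of each member's start bin, which is at 0 on the dotted line, with 1 line for each biological replicate. Around zpg and bam both CySC-like lines run mostly below the GSC-like lines, around bgcn all 4 lines run high, and GSC-like replicate 1 dips at nos and bam.

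Since the GSC-like genotype carries nanos sequence on a driver transgene, the total signal of each gene was also set against its flanks, a ratio from which the scaling of a library cancels. The mean log2 of the gene body over the windows up to 50 kb on each side, averaged over E and L, at nos was -0.19 and -0.57 in the GSC-like replicates, against -0.44 and -0.38 in CySC-like. Both CySC-like values lay between the GSC-like ones. The difference at nos was 0.03 ± 0.22 (SE, n = 2 each, adjusted p = 0.980), with a 95% interval of -0.53 to 0.59. At ovo the ratio was -0.37 and -0.63 in GSC-like, against -0.04 and -0.24 in CySC-like, and at bgcn it was -0.63 and -0.27 in GSC-like, against -0.09 and -0.25 in CySC-like. The nearest values of the cell types all but met at bgcn, with -0.27 in GSC-like and -0.25 in CySC-like. At the members other than nos the differences ranged from -0.36 at ovo to 0.23 at zpg, with adjusted p of 0.820 or higher. By limma 0 of 6 members and 0 of 18277 genes passed (0%), and at an unadjusted p under 0.05 there were 955 genes (5.23%) and none of the members. The median over all genes was -0.12.

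The members were also read beside other genes of the germline stem cell pathway. The list of 11 further germline maintenance genes held pum, shg, hts, otu, Phf7, stil, stwl, Stat92E, tud, pgc and gcl. By start bin 7 of them (63.6%, beside 74.9% of coding genes) had a higher mean in GSC-like than in CySC-like nuclei. By limma 0 passed the test of the difference, and 1 had an unadjusted p under 0.05, beside 9.68% of all bins. In GSC-like nuclei E exceeded L past the threshold at Stat92E, the transcription factor of JAK-STAT signalling, with 1.55, and at tud, a Tudor-domain protein of germ granules, with 1.44. In CySC-like nuclei that held for otu, an ovarian tumour deubiquitinase, with 1.40. At Stat92E and tud GSC-like replicate 1 had 1.00 and 0.59, against 2.11 and 2.28 in the shallow GSC-like replicate 2.

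Of 9 BMP signalling genes (dpp, gbb, tkv, sax, put, Mad, Med, Dad and shn) 7 (77.8%) were higher in GSC-like, beside 74.9% of coding genes. E exceeded L past the threshold in GSC-like nuclei at 5 of them, 55.6% beside 32.5% of coding genes and 17.9% of bins, the ligand gbb with 1.58, the receptor sax with 1.42, the SMAD Med with 1.51, the inhibitory SMAD Dad with 1.48 and the cofactor shn with 1.50. At all 5 the shallow GSC-like replicate 2 had the higher value. In GSC-like replicates 1 and 2 the values were 0.28 and 2.56 at sax, 0.64 and 2.37 at shn, and 1.07 and 1.94 at Med. Over all bins, such calls for E fell from 2466 to 323 with scaling by the median bin. In CySC-like nuclei shn passed, with 1.39. The gbb start lies in the bgcn bin, so its value is the bgcn value and not a separate measurement. The list's median difference was 0.13, against 0.39 for coding genes, and without GSC-like replicate 2 it was -0.20, against -0.06 for coding genes.

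Of 14 genes of transit amplification and spermatocyte entry (tut, mei-P26, brat, stet, spi, chinmo, how, Rbp9, Sxl, bru1, Rbp4, bol, twe and kmg) 10 (71.4%) were higher in GSC-like. In GSC-like nuclei E exceeded L past the threshold at how with 1.15, Rbp9 with 1.25 and kmg with 1.26. GSC-like replicates 1 and 2 had 0.64 and 1.65 at how, 0.39 and 2.11 at Rbp9, and 0.44 and 2.09 at kmg. In CySC-like nuclei 0 of 14 passed by limma, with 0 at an unadjusted p under 0.05, beside 4195 of all 13745 bins. Over the 34 genes of the 3 lists 0 passed the test of the difference by limma. At an unadjusted p under 0.05 there were 2, beside 9.68% of all bins. Their median difference was 0.43, and -0.31 without GSC-like replicate 2. Past the threshold for E were 10 of 34 in GSC-like nuclei and 2 of 34 in CySC-like nuclei. In CySC-like nuclei 136 of 13745 bins (0.989%) and 209 of 13968 coding genes by their start bin passed for E. The GSC-like share of 29.4% was near that of coding genes, 32.5%.

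The highest differences over the 34 genes were at bru1, an RNA-binding translational repressor, with 1.52 ± 0.61 (SE, adjusted p = 0.417), and at tut, whose product works with Bam and Bgcn, with 1.22 ± 0.61 (SE, adjusted p = 0.518). At tut GSC-like had a log2(E/L) of 0.84 and 1.21, against -1.09 and 0.69 in CySC-like, so that both GSC-like values lay above. The lowest were at pgc, a germ cell repressor of transcription, with -1.51 ± 0.62 (SE, adjusted p = 0.425), and at otu with -0.57 ± 0.66 (SE, adjusted p = 0.836). None of these 4 passed the test over all bins.

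Of 6 genes of the cyst lineage (tj, zfh1, eya, so, ptc and Socs36E) 2 were higher in GSC-like, and 0 passed in any of the 3 tests by limma. At an unadjusted p under 0.05 by limma there were 3 in GSC-like nuclei, 1 in CySC-like nuclei and 0 for the difference. Of all 13745 bins, 6366, 4195 and 1331 did so, in the same order. The highest difference was 0.54 at tj, the gene whose sequence drives the CySC-like tumours, and the lowest -0.98 at Socs36E, a JAK-STAT target and inhibitor (adjusted p = 0.626). The list's median difference was -0.03, beside 0.39 for coding genes, of which 74.9% were higher in GSC-like.

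The signal patterns of the members over the 14 libraries were correlated with each other, with Pearson's r of 0.42 to 0.89 over the 15 pairs and a median of 0.66. The pair closest to each other was nos and bam, and the farthest apart was zpg and bgcn. The median r of a member with all bins was between 0.14 and 0.39. These points share library depth and scaling, so r is a description. The most similar coding genes over 100 kb away or on another sequence were BicD for nos (r = 0.977), alpha-Man-IIb for vas (0.977), Saysd1 for zpg (0.898), CG32650 for ovo (0.984), Mtr4 for bam (0.958) and Art3 for bgcn (0.973). The next were GCC88 and Lar for nos, FoxK and jp for vas, Cdk4 and CG12784 for zpg, pum and Miga for ovo, RabGGTb and RpL4 for bam, and Vha100-1 and atk for bgcn.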

How the data were processed

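The deposited table holds, per its file header, 1 column per library over 139491 windows of 3 kb that step by 1 kb. Its RPKM values were made by the authors from reads aligned with Bowtie2 2.4.5 to dm6, per the submitters' processing notes. The unit was worked out from the values: in full-length windows 100% were whole multiples (within 0.05) of 1 step, which gave library totals. How duplicates and multiply aligned reads were handled is not given in the sources used here. Windows on 7 sequences were averaged into 10 kb bins by midpoint, libraries scaled to an equal mean and values used as log2(RPKM + 0.1). A filter dropped bins with no signal in at least 4 of 8 E or L libraries (13757 to 13745 bins). limma 3.58.1 (R 4.3.3, lmFit, eBayes, variance trend) was fitted to 1 log2(E/L) per biological replicate, 2 against 2, with Benjamini-Hochberg adjustment at 0.05. E and L are paired by replicate, per the series' design text, and their deviations correlated at 0.52 in GSC-like and -0.06 in CySC-like. EM and ML entered no test. The flank ratio was tested the same way over 18277 genes. Nothing in the labels says whether replicates came from separate crosses, so p-values speak only of these preparations. limma pooled the spread over both cell types and moderated it over all bins. Its SE, intervals and p-values are thus not the spread of a member's own 2 replicates.

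On simulated data with a spread of 0.634, the fit recovered 38% of 100 bins changed by 2 and 100% of 100 changed by 4 (log2), among 13745, with 1 false call. For flanks, with a spread of 0.360, it recovered 99% and 100%, with 7 false calls. Each simulation gave all its bins or genes, and both cell types, the same spread. In the data the GSC-like SD of log2(E/L) was 1.94 at nos and 1.62 at bam, so the simulated recovery and false calls do not speak for such bins.

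Named genes were the 6 members, the counts and the 2 highest and 2 lowest differences over 3 germline lists, the highest and lowest of a cyst list, and the 3 coding genes most like each member. Members and lists were chosen with earlier results of these data known. Python 3.11.15, numpy 2.4.6, pandas 2.3.3, scipy 1.17.1 and matplotlib 3.10.9 were used.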

Additional observations from a re-analysis of the deposited data

Results flagged for a closer look

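By limma's test of the difference between the cell types, 14 of 13745 bins passed, and none of them holds the start of a member. At 3 listed genes both replicates of each cell type had log2(E/L) on opposite sides of 0 in the cell types, though none passed limma's test of the difference. Over all bins, both GSC-like replicates lay above both CySC-like ones in 25.7% and below them in 15.2%, whatever the signs. How many of those bins also had opposite signs was not counted. At bru1 the values were 0.07 and 1.23 in GSC-like, against -1.34 and -0.39 in CySC-like, a difference of 1.52 (adjusted p = 0.417). At pgc they were -0.91 and -0.88 in GSC-like, against 1.15 and 0.08 in CySC-like, a difference of -1.51 (adjusted p = 0.425). At Socs36E they were -0.64 and -0.20 in GSC-like, against 0.95 and 0.16 in CySC-like, a difference of -0.98 (adjusted p = 0.626).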

How the results depend on the processing

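With 2 replicates a group, and 1 GSC-like replicate more than 10 times shallower, the data set wide limits. The bins that differed between the cell types (14 as reported) numbered 6 in 50 kb bins, 0 when scaled by the median bin (924 at an unadjusted p under 0.05 by limma) or on autosomal arm bins (1055), 8 without rescaling or with a pseudocount of 1, 0 without a variance trend (1346), with quantile normalization (1959) or in gene body windows (1408), and 7 to 322 with 1 replicate left out. Bins called within GSC-like (4168) numbered 737 of 2754 in 50 kb bins, 4 with no replicate block for E and L, 1348 with voom on estimated reads and 14 to 6208 with 1 replicate left out, while those within CySC-like (1539) numbered 319, 0 (1471 at an unadjusted p under 0.05), 4149 and 0 to 3252, and 861 without rescaling and 5469 with quantile normalization. Genes called against their flanks (0) numbered 0 to 5564 with 1 replicate left out, the highest without GSC-like replicate 1, and 3136 when the other GSC-like replicate was dropped, none of them a member (adjusted p of 0.092 or higher). Bins with E above and below L in GSC-like were 2466 and 1702, against 323 and 2551 scaled by the median bin, 545 and 2805 scaled on autosomal bins and 2902 and 1166 without rescaling.

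The replicate numbers of the 2 cell types share only a number (deviations correlated at -0.25), and with them as a replicate block 1 bin was called. The crossed pairing, added after seeing the data like voom, gave 70 bins.

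The nos difference was -0.13 in 50 kb bins, -0.11 scaled by the median bin, -0.0445 on autosomal bins, -0.27 with quantile normalization and -0.26 with voom. In CySC-like, ovo was 0.31 in 50 kb bins and 0.0459 with quantile normalization. With all fractions averaged, the flank differences were -0.0703 at nos, -0.0384 at zpg and -0.24 at bam. With 1 replicate left out, the difference ranged from -1.12 to 1.63 at nos, -0.15 to 0.99 at vas, -0.11 to 2.18 at bam and -0.0705 to 1.36 at bgcn, log2(E/L) in GSC-like from -0.61 to 2.14 at nos and -0.32 to 1.96 at bam, and in CySC-like from -1.60 to 0.18 at zpg and -0.41 to 0.23 at ovo. Flank differences then ranged from -0.16 to 0.22 at nos, -0.37 to 0.0930 at vas and -0.23 to 0.30 at bam. The cause of these changes was not tested. With all replicates kept, no member's call changed except bgcn within GSC-like as reported, ovo there in 50 kb bins (1.27), and bgcn in CySC-like with quantile normalization (1.09) or voom (1.05). Calls from fits with 1 replicate left out are not read for the members, since a cell type with 1 replicate adds no spread to the p-values.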
